A study of Mus musculus with 4 samples.

Results

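Kupffer cells are the resident macrophages of the liver. They sit in the sinusoids, where they clear bacteria, dying cells, complement-coated particles and worn red cells from portal blood, and they recycle the iron of those red cells. Their identity is set by signals from neighbouring sinusoidal endothelium, stellate cells and hepatocytes, and it is lost or diluted when monocytes replace them in an inflamed or tumour-bearing liver. A set of 9 genes that mark these cells in the mouse (Clec4f, Vsig4, Timd4, Cd5l, Marco, Folr2, Cd163, Slc40a1 and Id3) was followed here, of 48526 genes counted. The set was chosen by name, mouse symbols being assigned from the Ensembl identifiers without their version, and all 9 were found and passed the filter on low counts.

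The libraries are bulk RNA sequencing of liver tumours of C57BL/6 mice in 2 groups of 2. AKK animals received 5000000000 colony-forming units of Akkermansia muciniphila (Akk), a gut bacterium that feeds on mucin, by mouth, and PBS animals received phosphate-buffered saline. In both groups dosing began 2 weeks before a methionine- and choline-deficient (MCD) diet of 2 weeks, which fattens the liver. All animals then had luciferase-labelled cells of the mouse hepatoma line RIL-175 implanted into the liver, and Akk feeding stopped for 6 days after surgery before it was taken up again. The tumours are thus grafts of a single cell line in a host liver, and the samples hold both tumour and host cells. The sources used here give no ages and call the replicates biological without saying that each is a separate animal. The p-values therefore cover the spread between these libraries alone. The depositors' names for the tables differ in pattern between the groups. If those names mark separate cohorts, cohort and treatment cannot be told apart. The comparison asks how Akk feeding changes the tumour and its immune cells.

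Libraries held 48912489 to 59027227 reads on genes, counted on the gene's own strand. Levels are CPM, read counts relative to library size after scaling by the trimmed mean of M values (TMM), and 3 reads, taken as the limit that a count of 0 allows, were worth 0.0514 to 0.0631 CPM. Intervals and floors cover counting error only. For 17 of 18 hepatocyte genes both AKK libraries lay above both PBS libraries, and AKK 1 was the highest. Summed, 17 hepatocyte genes (Apob left out, as it was high in all libraries) read 2.96 and 4.42 CPM in PBS 1 and PBS 2, 529 CPM in AKK 1 and 154 CPM in AKK 2. With Apob the sum was 244 and 588 CPM in the PBS libraries, and 693 and 622 CPM in the AKK libraries. Macrophages were present in every library. The 16 pan-macrophage genes had 26018 to 38358 reads per library, and their sum was 719 CPM in PBS 1, 559 CPM in PBS 2, 460 CPM in AKK 1 and 480 CPM in AKK 2.

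The 9 markers are described here as a group of 5 and a group of 4, chosen with earlier results of these data known. The contrast between the groups is therefore a description and not a test. Clec4f, Vsig4, Timd4, Cd5l and Marco, which are largely restricted to resident macrophages, were almost absent from the PBS tumours and were present in both AKK tumours. Summed, they had 18 reads in PBS 1 and 1 in PBS 2, against 1027 in AKK 1 and 139 in AKK 2. Folr2, Cd163, Slc40a1 and Id3, which other macrophages or other cells also express, were present in every library, with overlapping groups. In bulk tissue, more cells of a type and more RNA per cell cannot be told apart.

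**Figure D1:**
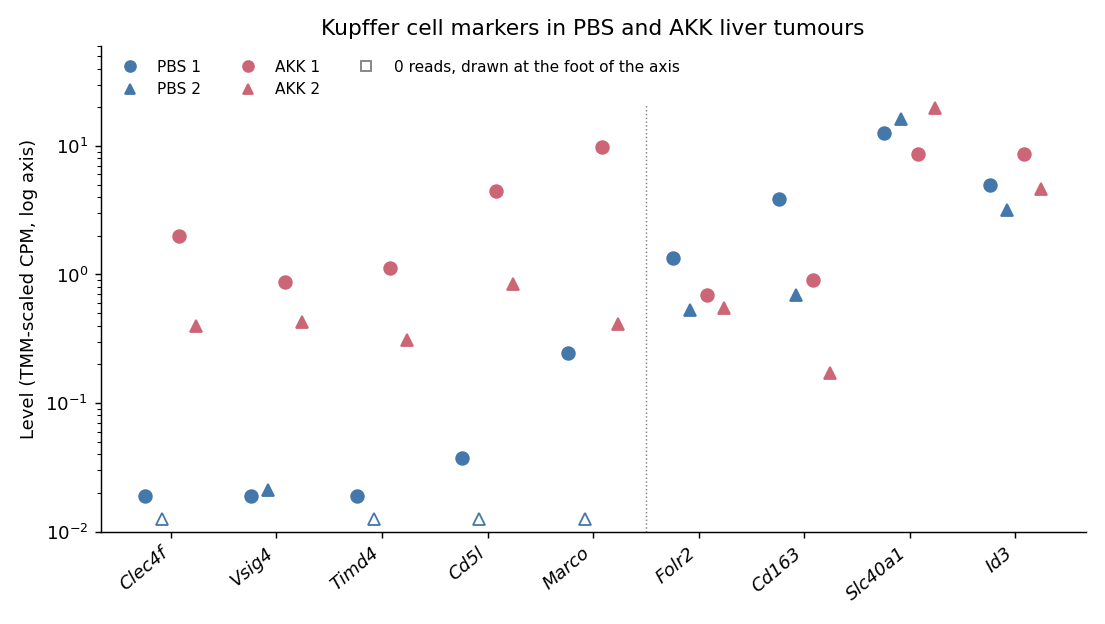
Level of each Kupffer cell marker in each library, in TMM-scaled CPM on a log axis; circles are replicate 1, triangles replicate 2, and open symbols are libraries with 0 reads, set at the foot of the axis. Left of the dotted line both AKK libraries lie above both PBS libraries for all 5 genes; right of it the groups overlap for all 4.

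Clec4f (ENSMUSG00000014542.3), a C-type lectin that in the mouse is the most Kupffer-specific surface marker, had 1 read in PBS 1 and 0 in PBS 2, and 112 in AKK 1 and 23 in AKK 2. That is 0.0187 and 0 CPM against 1.98 and 0.394 CPM. Neither PBS library reached the lower AKK value: the upper 95% Poisson bound was 0.104 CPM in PBS 1 and 0.0776 CPM in PBS 2, and the lower bound in AKK 2 was 0.2497 CPM. On reads summed over each group the AKK to PBS ratio was 119, with a counting interval of 20.9 to 4717. The fitted log2 fold change of Clec4f was 6.61 (SE 1.35, edgeR adjusted p = 0.186). Adjusted over all genes tested, that p missed the threshold of 0.05.

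Vsig4 (ENSMUSG00000044206.3) encodes the complement receptor CRIg, with which Kupffer cells seize particles coated with C3 fragments. It had 1 and 1 reads in the PBS libraries against 49 and 25 in the AKK libraries, or 0.0187 and 0.0210 CPM against 0.867 and 0.428 CPM. Of the 5 restricted genes it had the closest agreement between the AKK tumours. The summed-read ratio was 32.5 (counting interval 8.68 to 273), and the fitted log2 fold change 4.87 (SE 0.83, edgeR adjusted p = 0.182).

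Timd4 (ENSMUSG00000055546.6), a receptor for phosphatidylserine on dying cells, marks Kupffer cells of embryonic origin and is absent or late in monocyte-derived ones. It had 1 and 0 reads in the PBS libraries and 64 and 18 reads in the AKK libraries (0.0187 and 0 CPM for PBS, 1.13 and 0.308 CPM for AKK). Both AKK values thus lay above both PBS values. The summed-read ratio was 72.0 (counting interval 12.6 to 2878) and the log2 fold change 5.89 (SE 1.24, edgeR adjusted p = 0.187).

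Cd5l (ENSMUSG00000015854.7) encodes a secreted scavenger protein, also called AIM, that keeps macrophages from apoptosis and is a target of the liver X receptor. It had 2 and 0 reads in PBS against 251 and 49 in AKK, or 0.0375 and 0 CPM for PBS, 4.44 and 0.839 CPM for AKK. The summed-read ratio was 132 (counting interval 36.1 to 1093) and the log2 fold change 6.91 (SE 1.34, edgeR adjusted p = 0.182). Clec4f and Cd5l were within their errors of each other.

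Marco (ENSMUSG00000026390.7), a class A scavenger receptor that binds bacteria, was the least even. It had 13 and 0 reads in PBS against 551 and 24 in AKK, or 0.244 and 0 CPM for PBS, 9.75 and 0.411 CPM for AKK. AKK 2 lay nearer to PBS 1 than to AKK 1, and the 95% Poisson intervals of PBS 1 (0.130 to 0.417 CPM) and AKK 2 (0.263 to 0.612 CPM) overlapped. The summed-read ratio of 38.8 (counting interval 22.5 to 73.4) therefore rested on AKK 1. The log2 fold change was 5.32 (SE 1.84, edgeR adjusted p = 0.286), and 1.70 without AKK 1 and 11.09 without PBS 1, when it is fitted against 0 reads.

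None of the 9 markers passed in edgeR, which called 0.00572% of the 17479 genes tested. Of the 9, 5 had an unadjusted p under 0.05 in edgeR, all higher in AKK, against 6.70% of all genes in that direction and 8.62% in the other. DESeq2 called 4 of the 9 as higher: Clec4f (adjusted p = 0.00561), Vsig4 (0.0206), Timd4 (0.0253) and Cd5l (5.17e-05). It left out Marco (0.337), and over all genes it called 5.02%, with 2.04% higher and 2.98% lower. limma-voom called 0 of the 9 and 0% of all genes. Both AKK libraries lay above both PBS libraries for 5 of the 9, where 26.7% of all genes did so, and below them for 0 of the 9, where 24.7% of all genes did. The counts given for the other lists below are to be read against these same shares over all genes. The 5 restricted genes passed the filter through their AKK reads alone, so they had to be higher there to be tested, and their counts do not stand as support. The same holds for genes of the lists below with few PBS reads, among them Stab2, F5, Hamp and the hepatocyte gene Cps1. The median log2 fold change of the 9 was 4.87, and 0.02 over all genes kept. Without AKK 1 the median was 1.70, and edgeR then called 0 of the 9. Without PBS 1 edgeR called 3 of the 9 and 279 of the 18627 genes then tested.

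Shared regulation of the 5 restricted genes, which were all higher in both AKK libraries than in either PBS library, was not tested. Their promoters are shown as a description. They come from RefSeq on GRCm38.p6, which holds entries for 8 of the 9 markers, and span 250 bases before to 50 after the start of the gene, 5′ to 3′ on the gene's strand. Capitals mark TGCTGA or its complement TCAGCA, the core of the sites that large MAF transcription factors bind. The coordinates are chr6:83656067-83656366 (minus strand) for Clec4f, chrX:96293389-96293688 (minus) for Vsig4, chr11:46810549-46810848 (plus) for Timd4, chr3:87357631-87357930 (plus) for Cd5l and chr1:120504975-120505274 (minus) for Marco.
Clec4f: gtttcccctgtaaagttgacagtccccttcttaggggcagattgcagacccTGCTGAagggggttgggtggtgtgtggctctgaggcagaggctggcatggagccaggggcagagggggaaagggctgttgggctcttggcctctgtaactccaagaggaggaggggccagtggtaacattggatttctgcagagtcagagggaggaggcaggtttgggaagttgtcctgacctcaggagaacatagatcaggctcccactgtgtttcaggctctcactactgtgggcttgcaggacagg
Vsig4: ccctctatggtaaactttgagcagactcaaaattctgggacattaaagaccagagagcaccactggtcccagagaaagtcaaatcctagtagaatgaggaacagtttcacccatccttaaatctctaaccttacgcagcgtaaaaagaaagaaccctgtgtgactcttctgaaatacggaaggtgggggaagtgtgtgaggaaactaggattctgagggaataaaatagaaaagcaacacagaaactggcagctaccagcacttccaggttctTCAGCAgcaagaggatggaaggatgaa
Timd4: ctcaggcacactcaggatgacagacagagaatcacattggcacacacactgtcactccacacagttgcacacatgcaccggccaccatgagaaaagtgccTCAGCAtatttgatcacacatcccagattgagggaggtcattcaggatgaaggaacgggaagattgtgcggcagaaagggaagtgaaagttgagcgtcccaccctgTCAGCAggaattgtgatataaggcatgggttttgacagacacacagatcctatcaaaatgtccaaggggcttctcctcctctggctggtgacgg
Cd5l: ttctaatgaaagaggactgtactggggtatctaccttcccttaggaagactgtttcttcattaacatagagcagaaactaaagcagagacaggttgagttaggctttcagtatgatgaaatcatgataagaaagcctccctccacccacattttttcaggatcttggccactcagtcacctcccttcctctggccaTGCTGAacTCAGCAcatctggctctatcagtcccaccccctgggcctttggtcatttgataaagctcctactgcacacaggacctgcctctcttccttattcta
Marco: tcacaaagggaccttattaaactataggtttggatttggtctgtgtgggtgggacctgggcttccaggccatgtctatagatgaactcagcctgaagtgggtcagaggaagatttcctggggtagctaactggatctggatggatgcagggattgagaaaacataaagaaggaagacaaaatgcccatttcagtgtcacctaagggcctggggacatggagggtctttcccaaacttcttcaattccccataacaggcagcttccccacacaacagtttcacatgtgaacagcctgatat

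The MAF core was found in 6 of the 9 marker promoters in the table, where Folr2 has 2 entries, and in 19.5% of all 32851 promoters of that length. Clec4f had a copy 199 bases before the start, Vsig4 a copy on the opposite strand 23 bases after it, and Timd4 copies on the opposite strand 150 and 44 bases before it. In Cd5l the copies at 54 and 46 bases before the start faced each other with 2 bases between them, the arrangement of the palindromic element that MAF dimers recognise. Marco, Cd163 and Id3 had no match in this window. The other motifs were searched in the same way on both strands. GGAAGT, the core of ETS sites such as those of PU.1, was in 4 of 9 marker promoters and 23.8% of all, and the longer PU.1 motif GAGGAAGT, which contains that core, in 0 and 3.20%. AGGTCA, recognised by nuclear receptors such as the liver X receptor, was in 2 of 9 and 16.3%, TGGGAA of RBPJ in 2 of 9 and 25.6%, and the BMP-SMAD motif GGCGCC in 0 and 11.9%. The E-box CANNTG was in 6 of 9 and 72.3%, and the TATA box TATAAA in 0 and 13.6%. A match describes letters in a window, and binding was not measured.

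For the 4 other markers the groups overlapped. Folr2 (ENSMUSG00000032725.10), the folate receptor beta of resident and tumour macrophages, had 72 reads in PBS 1 and 25 in PBS 2, and 39 in AKK 1 and 32 in AKK 2, or 1.35 and 0.526 CPM for PBS, 0.690 and 0.548 CPM for AKK. The PBS libraries spanned both AKK values, and the log2 fold change was -0.60 (SE 0.62, edgeR adjusted p = 0.653). Its value is uncertain, since in the GENCODE M21 annotation the gene overlaps an antisense gene, Gm10602. The opposite strand had 18 to 42 reads per library, and counting without strand left 6, 8, 7 and 5 reads.

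Cd163 (ENSMUSG00000008845.9), the receptor that takes up haptoglobin-haemoglobin complexes, had 207 and 33 reads in the PBS libraries and 51 and 10 in the AKK libraries. In CPM these were 3.88 and 0.694 against 0.902 and 0.171. PBS 1 was the highest and AKK 2 the lowest library, with PBS 2 and AKK 1 between them, so the groups overlapped. The log2 fold change was -2.09 (SE 1.07, edgeR adjusted p = 0.399), and -0.38 without PBS 1.

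Slc40a1 (ENSMUSG00000025993.10), ferroportin, the iron exporter through which macrophages return iron to plasma, had 669 and 772 reads in PBS against 492 and 1152 in AKK. The CPM values were 12.5 and 16.2 against 8.71 and 19.7, so the AKK libraries held both the lowest and the highest value. The log2 fold change was -0.02 (SE 0.42, edgeR adjusted p = 0.988), and its sign turned with the library left out.

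Id3 (ENSMUSG00000007872.3), an inhibitor of basic helix-loop-helix factors that Kupffer cells need to develop, had 264 and 151 reads in PBS against 491 and 270 in AKK, or 4.95 and 3.18 CPM for PBS, 8.69 and 4.62 CPM for AKK. AKK 1 was highest, while AKK 2 lay just below PBS 1. The log2 fold change was 0.71 (SE 0.46, edgeR adjusted p = 0.481). Its relative Id1, another target of bone morphogenetic protein signalling, read 22.0 and 32.4 CPM in PBS against 70.9 and 37.1 CPM in AKK (log2 fold change 0.99, edgeR adjusted p = 0.298), with both AKK libraries above both PBS libraries.

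Scaled to exon length, the order of the markers differed between the groups. In CPM per kilobase, PBS 1 read 2.76 for Id3, 1.39 for Slc40a1, 0.873 for Folr2 and 0.710 for Cd163, ahead of 0.127 for Marco and at most 0.0184 for the other 4. PBS 2 had the same 4 genes in front, with Slc40a1 at 1.80 and Id3 at 1.77. In AKK 1 the order began with Marco at 5.06, Id3 at 4.85 and Cd5l at 2.18, and Cd163 was last at 0.165. Id3 and Slc40a1 exchanged places between PBS 1 and PBS 2, and Marco went from the first place in AKK 1 to the sixth in AKK 2, so these neighbours were not ordered beyond the spread between libraries. In AKK 2 it began with Id3 at 2.58, Slc40a1 at 2.19 and Cd5l at 0.412, and Cd163 was again last at 0.0314. In both AKK libraries Clec4f, Vsig4 and Timd4 lay close together, at 0.521 to 0.802 in AKK 1 and 0.142 to 0.288 in AKK 2.

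Of the 16 pan-macrophage genes, 13 had a negative and 3 a positive log2 fold change, with a median of -0.41. Both AKK libraries lay below both PBS libraries for 9, above them for 2, and overlapped them for 5. Over all genes, 24.7% lay below and 26.7% above. Of the pan-macrophage genes edgeR called 0, and DESeq2 called Mpeg1 as lower and Cd14 as higher. Mpeg1, the pore-forming protein perforin-2, read 80.3 and 78.2 CPM for PBS, 34.3 and 45.3 CPM for AKK (edgeR adjusted p = 0.186, DESeq2 0.00879). Adgre1, the gene of F4/80, read 10.2 and 6.06 CPM for PBS, 2.53 and 4.69 CPM for AKK (edgeR adjusted p = 0.323). Csf1r, the receptor of the macrophage growth factor, read 61.5 and 35.03 CPM for PBS, 23.5 and 28.1 CPM for AKK (edgeR adjusted p = 0.282). Cd14, a co-receptor for endotoxin, was at 17.1 and 19.8 CPM for PBS, 40.9 and 30.3 CPM for AKK (edgeR adjusted p = 0.211, DESeq2 0.0367). Set against the reads of the pan-macrophage list in the same library, the 5 restricted markers had 0.469 and 0.0376 reads per 1000 in PBS 1 and PBS 2 and 39.5 and 4.96 per 1000 in AKK 1 and AKK 2. These are ratios of separate lists, and they were higher in both AKK libraries than in either PBS library. Cd163 overlapped on this scale, at 5.40 and 1.24 per 1000 in PBS and 1.96 and 0.357 per 1000 in AKK.

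**Figure D2:**
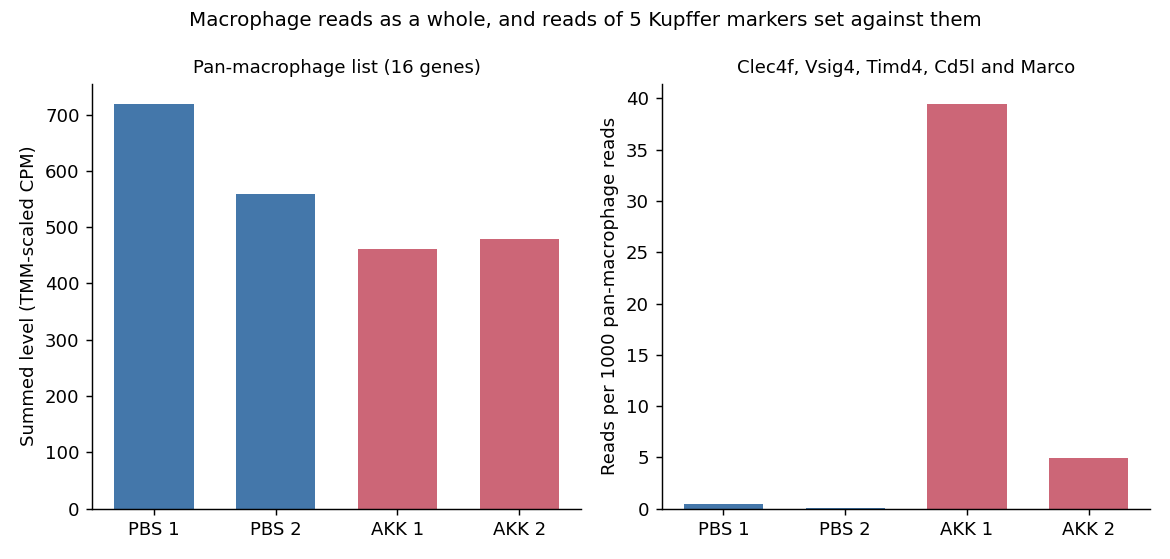
Left, summed level of the 16 pan-macrophage genes in each library (TMM-scaled CPM); right, summed reads of Clec4f, Vsig4, Timd4, Cd5l and Marco per 1000 reads of the pan-macrophage list. Macrophage reads were higher in the PBS libraries (719 and 559 CPM for PBS, 460 and 480 CPM for AKK), whereas the 5 markers were at 0.469 and 0.0376 per 1000 in PBS and 39.5 and 4.96 per 1000 in AKK.

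Other genes of resident Kupffer cells were mixed. Of the 14 listed, 8 passed the filter, 6 with positive and 2 with negative fold changes, and edgeR and DESeq2 called 0, with 2 at an unadjusted p under 0.05 in edgeR. The median log2 fold change was 0.53. The complement component C6 read 0.8997 and 1.39 CPM for PBS, 4.55 and 2.06 CPM for AKK (edgeR adjusted p = 0.302). Pcolce2, an enhancer of collagen processing, read 47.5 and 32.2 CPM for PBS, 60.5 and 89.4 CPM for AKK (0.262), and the adhesion molecule Vcam1 128.7 and 82.1 CPM for PBS, 158 and 155 CPM for AKK (0.359). Clec1b, the podoplanin receptor CLEC-2, lay slightly lower in both AKK libraries, at 1.31 and 1.70 CPM for PBS, 1.27 and 0.942 CPM for AKK (0.664). The lectin gene Cd207 had 0 and 0 reads in PBS against 16 and 1 in AKK, and was below the filter.

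Transcription factors that shape Kupffer cells were expressed in all libraries. Of 12 factors, 5 had positive and 7 negative fold changes (median log2 fold change -0.18), with 0 calls in edgeR. Nr1h3, the liver X receptor alpha that holds the Kupffer programme, read 8.98 and 5.99 CPM for PBS, 17.6 and 11.7 CPM for AKK (log2 fold change 0.97, edgeR adjusted p = 0.297), with both AKK libraries higher. Rbpj, which carries Notch signals, read 168 and 151 CPM for PBS, 66.3 and 111 CPM for AKK, and Smad4, which carries those of the TGF-beta family, 143 and 155 CPM for PBS, 91.9 and 109.7 CPM for AKK (edgeR adjusted p of 0.277 and 0.284). Spic, the factor of iron-recycling macrophages, was high only in AKK 1, at 0.262, 0.231, 1.01 and 0.120 CPM in PBS 1, PBS 2, AKK 1 and AKK 2.

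The niche signals that hold Kupffer cells in place had negative fold changes for most genes. Of 14 ligands and receptors, 11 passed the filter, 8 with negative and 3 with positive fold changes (median log2 fold change -0.61). Of these edgeR called 0 and DESeq2 1. That gene was the Notch ligand Dll4, which sinusoidal endothelium shows to incoming monocytes, at 41.6 and 23.5 CPM for PBS, 7.02 and 14.6 CPM for AKK (edgeR adjusted p = 0.240, DESeq2 0.0174). Dll1 read 35.6 and 40.2 CPM for PBS, 29.5 and 20.1 CPM for AKK (edgeR adjusted p = 0.324). The liver-made ligands Gdf2 (BMP9) and Bmp10 were below the filter but followed the restricted markers, with 1, 0, 22 and 4 reads for Gdf2 and 0, 0, 8 and 1 for Bmp10, in the order of PBS 1, PBS 2, AKK 1, AKK 2.

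Iron and haem handling connects Cd163 and Slc40a1 with plasma proteins made by hepatocytes. Of 14 genes, 13 passed the filter, 10 with positive and 3 with negative fold changes (median log2 fold change 0.57). Of these edgeR called 0, and DESeq2 called 5 as higher and 1 as lower, against 2.04% and 2.98% of all genes. Haptoglobin (Hp), the ligand through which CD163 clears haemoglobin, read 4.72 and 1.30 CPM for PBS, 195 and 40.4 CPM for AKK (edgeR adjusted p = 0.182, DESeq2 0.00143). Haemopexin (Hpx) read 3.43 and 8.41 CPM for PBS, 123 and 45.4 CPM for AKK, and ceruloplasmin (Cp), the ferroxidase that works with ferroportin, 19.9 and 32.4 CPM for PBS, 103 and 76.4 CPM for AKK (edgeR adjusted p = 0.182 for each). Hepcidin (Hamp), the hormone that removes ferroportin from the cell surface, had 0 and 0 reads in PBS against 917 and 27 in AKK, or 16.2 and 0.462 CPM in AKK 1 and AKK 2, so its size rests on AKK 1. Haem oxygenase (Hmox1), which opens the haem ring, read 45.5, 103, 152 and 68.1 CPM in PBS 1, PBS 2, AKK 1 and AKK 2 (edgeR adjusted p = 0.604).

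**Figure D3:**
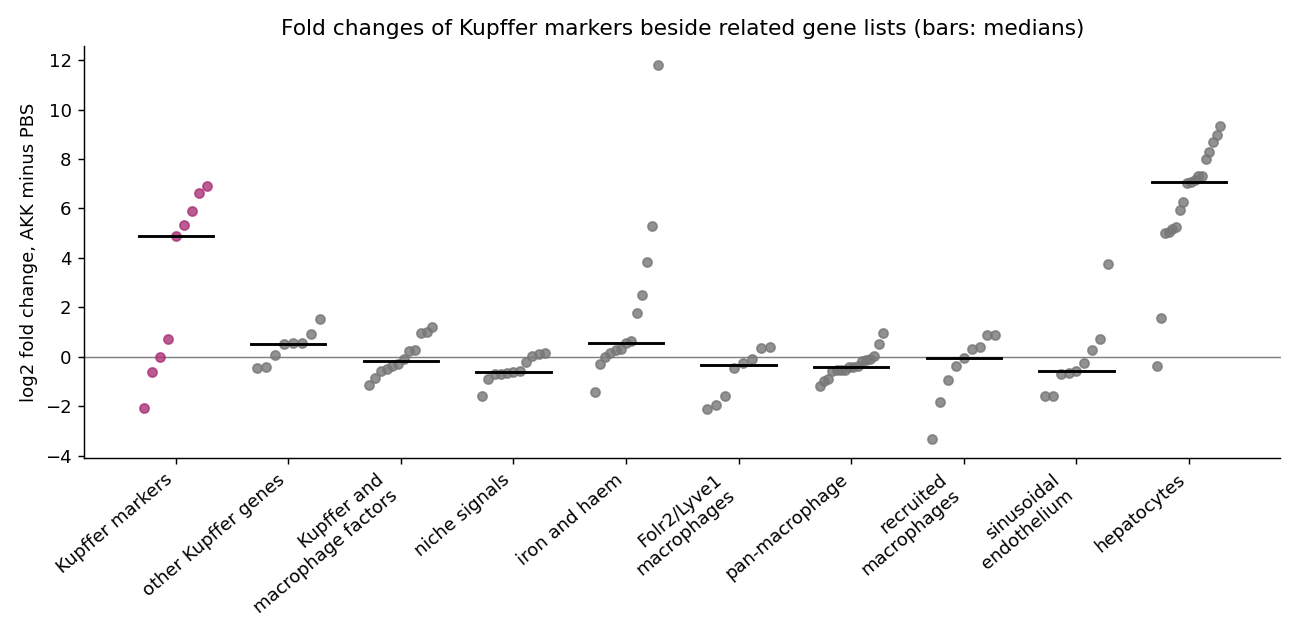
Fitted log2 fold change (AKK minus PBS) of every gene that passed the filter in the lists shown, with the Kupffer markers in purple and a black bar at each list's median. The Kupffer markers split into 5 genes between 4.87 and 6.91 and 4 genes between -2.09 and 0.71, and the hepatocyte list has a median of 7.05.

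Markers of other macrophage states had medians nearer 0 than the 4.87 of the 9 Kupffer markers. Genes of perivascular macrophages that carry Folr2 and Lyve1 had 2 positive and 6 negative fold changes among 8 kept (median log2 fold change -0.35), with 0 calls in edgeR and 2 lower in DESeq2. F13a1, coagulation factor XIII of macrophages, read 11.2 and 3.93 CPM for PBS, 1.95 and 1.56 CPM for AKK (edgeR adjusted p = 0.235, DESeq2 0.00801), the mannose receptor Mrc1 470 and 363 CPM for PBS, 360 and 341 CPM for AKK (0.617 in edgeR). Genes of recruited and lipid-laden macrophages had 4 positive and 5 negative fold changes among 9 kept (median -0.07), with 0 calls in edgeR and 2 lower in DESeq2. The latter were Chil3, a chitinase-like protein of myeloid cells (5.30 and 0.883 CPM for PBS, 0.283 and 0.325 CPM for AKK, DESeq2 adjusted p = 0.00602), and Fabp5, a fatty acid binding protein (26.5 and 32.2 CPM for PBS, 16.6 and 13.9 CPM for AKK, 0.0200). Trem2 read 2.999 and 1.43 CPM for PBS, 2.48 and 1.75 CPM for AKK, and Ccr2, the receptor that draws monocytes into tissue, 3.24 and 1.91 CPM for PBS, 5.47 and 3.89 CPM for AKK (edgeR adjusted p of 0.958 and 0.409). Large peritoneal macrophages also carry Timd4 and Marco. Of their 9 listed genes 8 were kept, 6 with positive fold changes (median 0.75). Of the 8, 3 were above the PBS range in each AKK tumour, 2 were below it and 3 overlapped. Their defining factor Gata6 was at 50.2 and 74.3 CPM for PBS, 40.6 and 46.4 CPM for AKK (edgeR adjusted p = 0.372). Alox15 had 9 and 2 reads in PBS, 1 and 4 in AKK. Prg4 went the other way from Gata6. It read 4.84 and 0.147 CPM for PBS, 5.48 and 6.56 CPM for AKK (edgeR adjusted p = 0.633). A peritoneal source of Timd4 and Marco was not tested. In this list edgeR called 0 and DESeq2 2 as higher, F5 and Selp, which hepatocytes and endothelium also make. Among relatives of the markers, 13 of 17 were kept, with 5 positive and 8 negative fold changes (median -0.30) and 1 lower call in DESeq2, the scavenger receptor Scara5 (18.6 and 4.58 CPM for PBS, 3.04 and 1.88 CPM for AKK). Timd2, a neighbour of Timd4 in its family, had 0, 0, 30 and 1 reads and was below the filter.

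Genes of normal liver had the profiles nearest to those of the restricted markers over the 4 libraries. The 8 protein-coding genes, of 13597 candidates, whose centred log2 CPM lay closest to the mean profile of the 5 restricted markers were Aadac, Pon1, Adh1, Cps1, Paqr9, Aspg, Proz and Slc6a13. Their root-mean-square distances over the 4 libraries were 0.121 to 0.349 on the log2 scale, against 0.163 for Clec4f and 1.00 for Marco, which are part of that mean. Folr2, Cd163, Slc40a1 and Id3 lay at 1.87 to 3.14. Of the 8, Cps1 makes carbamoyl phosphate in the urea cycle, Adh1 oxidises alcohols, Pon1 is a plasma esterase carried on lipoproteins, and Proz is a plasma protein of coagulation. Aadac, the nearest, had 3 and 0 reads in PBS against 135 and 25 in AKK. Across all 18 hepatocyte genes, 17 lay higher in both AKK libraries, against 26.7% of all genes. The median log2 fold change of the 18 was 7.05, or 6.65 with genes at 0 in PBS set to the floor of 3 reads over the group. Of the 18, edgeR called 1 and DESeq2 17 as higher, against 0.00572% and 2.04% of all genes. Albumin (Alb) read 0.2999 and 0.988 CPM for PBS, 156 and 25.4 CPM for AKK (edgeR adjusted p = 0.182).

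The AKK tumours differed from each other in both kinds of gene. The AKK 1 level divided by the AKK 2 level was 5.87 at the median hepatocyte gene (0.351 to 9.79 over the 18 genes) and 5.03 at the median of the 5 restricted markers, with 2.03 for Vsig4, 3.67 for Timd4, 5.03 for Clec4f, 5.29 for Cd5l and 23.7 for Marco. The same ratio was 0.98 at the median pan-macrophage gene. Per 1000 Alb reads, AKK 1 and AKK 2 had 28.5 and 33.1 reads of Cd5l, 12.7 and 15.5 of Clec4f, 7.26 and 12.2 of Timd4 and 5.56 and 16.9 of Vsig4, but 62.5 and 16.2 of Marco. These values depend on the hepatocyte gene chosen. The AKK 1 level divided by the AKK 2 level was 6.15 for Alb, but 1.48 for Fgb, 2.57 for Ahsg and 9.79 for Hpd. Sinusoidal endothelium, the neighbour of Kupffer cells, gave a mixed list, with 9 of 10 genes kept, 3 positive and 6 negative (median log2 fold change -0.59) and 1 call in each direction in DESeq2. Stab2, a hyaluronan receptor of that endothelium, lay with the restricted markers at 0.131 and 0.126 CPM for PBS, 2.65 and 0.822 CPM for AKK (edgeR adjusted p = 0.186, DESeq2 0.00214), and Clec4g had 0, 0, 30 and 5 reads. With 7 and 6 reads in PBS, Stab2 passed the filter through its AKK reads alone, so its call does not stand as support. Flt4, found on lymphatic as well as sinusoidal vessels, lay the other way at 9.60 and 6.50 CPM for PBS, 2.80 and 2.55 CPM for AKK (edgeR adjusted p = 0.199). Endothelium of other vessels was lower in both AKK libraries for 9 of 10 genes, against 24.7% of all genes. Vwf among them read 15.0 and 11.6 CPM for PBS, 0.743 and 1.70 CPM for AKK. The median of the list was -1.09, with 0 calls in edgeR and 4 lower in DESeq2, which called 2.98% of all genes as lower. Of 10 stellate cell genes, 8 were kept, 6 with positive fold changes (median 1.36, 0 calls in edgeR, 1 in each direction in DESeq2), and Colec10, below the filter, had 0, 0, 35 and 10 reads. The higher call was Colec11, at 0.450 and 0.589 CPM for PBS, 2.05 and 1.78 CPM for AKK (DESeq2 adjusted p = 0.0387). The lower call was Reln, at 17.4 and 3.55 CPM for PBS, 1.95 and 1.95 CPM for AKK (DESeq2 adjusted p = 0.0115). The amount of normal liver in each sample was not measured by other means, and its part in the difference of the Kupffer markers was not tested.

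**Figure D4:**
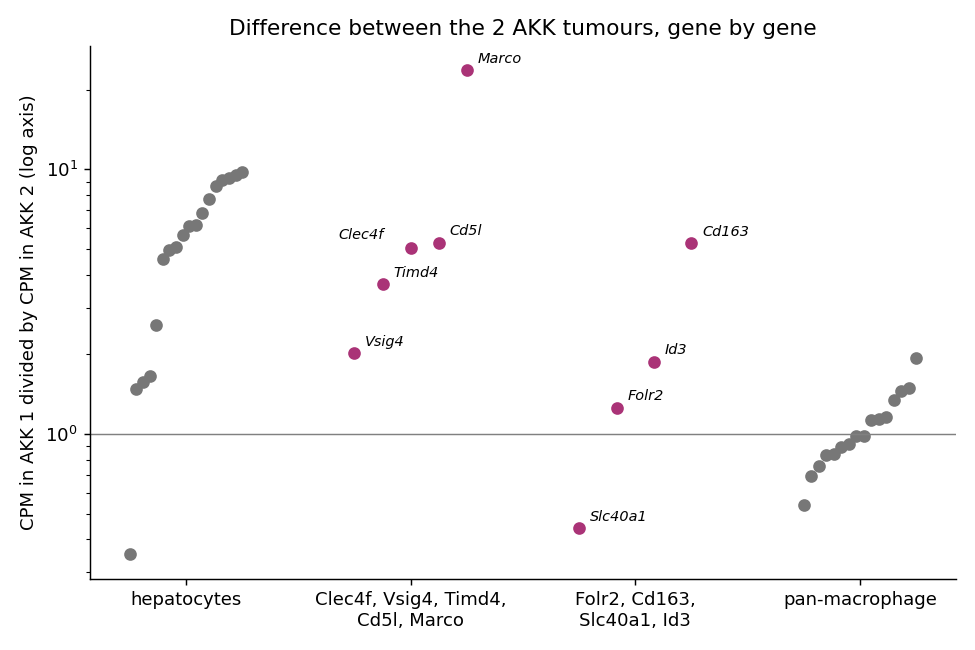
Level in AKK 1 divided by level in AKK 2 (ratio of CPM, log axis) for each hepatocyte gene, Kupffer marker and pan-macrophage gene; the line at 1 marks equal levels. The 5 restricted markers lie at 2.03 to 23.7 with a median of 5.03, beside 5.87 at the median hepatocyte gene and 0.98 at the median pan-macrophage gene.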

How the data were processed

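Tumour RNA of 4 libraries (2 PBS, 2 AKK) was analysed from deposited read counts per gene. The counts were deposited by the authors without normalization, in STAR's per-gene format. STAR 2.5.2 and RSEM 1.2.31 are the tools listed, per the submitters' processing notes. Neither build nor annotation is given in the sources used here. Counts on the gene's own strand (95.4 to 96.2% of stranded reads) were used. Summary rows that name no gene (27.6 to 31.4% of reads) were left out. Of 48526 identifiers, 48058 matched a symbol. Exon lengths come from GENCODE M21. AKK was compared with PBS by the two-sided quasi-likelihood test (edgeR 4.0.16 under R 4.3.3, legacy form, TMM, filterByExpr, prior count 0.125), with Benjamini-Hochberg adjustment at 0.05 over 17479 genes. SE were derived from F. Group ratios of summed reads have exact binomial 95% intervals. DESeq2 1.42.0 and limma 3.58.1 (voom) were alternatives, beside other scalings, filters, the replicate block, unstranded counts and leaving out each library. Where that left 1 library in a group, it was taken to be as variable as the other group. The gene test was tested on simulated data, in which no changed gene was set to have as few reads as the restricted markers had in PBS. Members, lists, motifs and tests were chosen with earlier results of these data known. Named genes are the 9 markers, the 3 genes with the smallest p of each list, a set of reference genes and the 8 nearest profiles, of which not all are printed. All others, and the motif set in capitals, were chosen after their values were seen. A gene of the transcription factor list is not reported here.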

Additional observations from a re-analysis of the deposited data

How the results depend on the processing

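The number of genes past the threshold was 1 as reported, 878 with DESeq2, 631 with edgeR and no filter on low counts, 209 with the replicate block, 4 with the edgeR 4 form and 0 with limma-voom. Leaving out 1 library gave 0 to 324. Among the 9 markers the count was 0 as reported, 4 with DESeq2, 5 with no filter, 4 with the replicate block, and 0 to 3 with 1 library left out (3 without PBS 1, namely Clec4f, Cd5l and Marco). The replicate numbers are not said to pair libraries (correlation of the deviations of both first replicates -0.02), so the block rests on a shared number alone. With it Clec4f, Timd4, Cd5l and Marco passed. The median log2 fold change of the markers was 0.35 with a filter of 1 CPM in 2 libraries, which keeps Slc40a1 and Id3 alone, and 1.70 (without AKK 1) to 5.28 with 1 library left out. With 1 library left out Folr2 ranged from -1.15 to 0.23 (positive without PBS 1) and Slc40a1 from -0.73 to 0.46 (0.16 without PBS 2, 0.46 without AKK 1). The log2 fold change ranged from 5.02 to 9.00 for Clec4f, 4.28 to 5.28 for Vsig4, 4.67 to 8.28 for Timd4, 5.26 to 10.15 for Cd5l and 1.70 to 11.09 for Marco, in each case lowest without AKK 1. It was highest without PBS 1, where PBS 2 has 0 reads and the value depends on the prior count, except for Vsig4, highest without AKK 2. Unstranded counts dropped Folr2 from the fit. Clec4f, Vsig4, Timd4, Cd5l, Marco, Cd163 and Id3 kept their sign under every alternative that kept them. At 0 to 2 reads in PBS, the depth limits how large the change of Clec4f, Vsig4, Timd4 and Cd5l can be said to be. The cause of the differences between tests was not tested.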
